A study of Mus musculus with 27 samples.

Results

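The 10 genes described here, Mme, Prune2, Ncam1, Xirp2, Syt7, Rasl11b, Arid5a, Prkag3, Rsrp1 and Tceal7, were picked because their RNA differed with propranolol in these same hearts. They were 10 of 51826 genes in the deposited count table, and all 10 were among the 19119 genes with enough reads to be tested. Whole hearts were taken from CD-1 pups on postnatal day 14 for RNA sequencing, with 3 hearts in each of 9 groups. Propranolol (PRO, 20 ug per g body weight per day) and phenoxybenzamine (PHE, 10 ug per g per day) were injected under the skin of the pups daily from postnatal day 1, and control pups are labelled saline. In the PTU groups the mothers ate iodine-deficient chow with 0.15% propylthiouracil from E13.5 onward, so pups were exposed through the mother before and after birth. The sample titles divide the hearts into a set A and a set B. Set B held the PRO, PTU+PRO, PTU and saline groups, and set A held the PHE+PRO, PTU+PHE+PRO, PTU+PHE, PHE and a second saline group. All pups were nursed by their mothers. The labels do not tie a heart to its litter, so litter and PTU cannot be told apart, and no hormone level is part of the data.

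Propranolol blocks beta-adrenergic receptors, through which noradrenaline from sympathetic nerves raises cyclic AMP in heart muscle cells and activates protein kinase A, which in turn acts on calcium handling and on transcription through CREB. Phenoxybenzamine blocks the alpha-adrenergic receptors irreversibly, and these signal mainly through phospholipase C and calcium. Propylthiouracil stops the thyroid from making thyroid hormone, which in the young mouse heart drives the switch from fetal to adult muscle genes and raises the number of beta receptors. The 10 genes do not belong to 1 pathway: they encode a peptidase and an adhesion molecule of the cell surface, a vesicle protein and 2 proteins with cytoskeletal or scaffold roles, 2 signalling proteins and 3 nuclear or RNA-related proteins.

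The promoters of 8 of the 10 genes were in the RefSeq promoter table (build GRCm38.p6), which holds a window of 300 bases around each annotated start. They were searched on both strands for TGACG, the half-site of the cyclic AMP response element, for the full element TGACGTCA, which contains the half-site, for CTA and TAG with any 4 bases between them, the core shared by sites of the MEF2 muscle factors, and for AGGTCA repeated after any 4 bases, a direct repeat of the kind thyroid hormone receptors bind. The half-site was found in the promoters of Prune2, Rsrp1 and Tceal7, and the MEF2-type core in that of Xirp2. These 4 are shown because they hold a match, printed 5′ to 3′ on the strand of the gene, with the matched letters in capitals.
Prune2 chr19:16955868-16956167 (+): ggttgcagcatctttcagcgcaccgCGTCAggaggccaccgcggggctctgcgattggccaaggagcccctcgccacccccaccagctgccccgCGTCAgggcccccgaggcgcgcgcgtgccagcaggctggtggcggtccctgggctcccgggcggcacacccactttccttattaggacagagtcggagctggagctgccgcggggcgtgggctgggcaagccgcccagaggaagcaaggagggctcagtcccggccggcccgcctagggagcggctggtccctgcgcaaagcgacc
Rsrp1 chr4:134923375-134923674 (+): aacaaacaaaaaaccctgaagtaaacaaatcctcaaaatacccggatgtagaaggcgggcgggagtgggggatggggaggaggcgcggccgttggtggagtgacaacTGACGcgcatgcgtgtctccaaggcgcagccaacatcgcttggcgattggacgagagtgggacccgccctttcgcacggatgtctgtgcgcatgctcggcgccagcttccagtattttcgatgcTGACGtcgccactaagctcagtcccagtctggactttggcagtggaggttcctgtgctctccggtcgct
Tceal7 chrX:136223791-136224090 (+): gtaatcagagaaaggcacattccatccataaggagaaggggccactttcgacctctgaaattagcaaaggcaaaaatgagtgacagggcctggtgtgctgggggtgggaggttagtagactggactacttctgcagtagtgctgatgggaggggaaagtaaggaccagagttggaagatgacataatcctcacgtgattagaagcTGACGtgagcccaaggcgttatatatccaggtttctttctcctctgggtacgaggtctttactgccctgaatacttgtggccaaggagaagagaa
Xirp2 chr2:67445752-67446051 (+): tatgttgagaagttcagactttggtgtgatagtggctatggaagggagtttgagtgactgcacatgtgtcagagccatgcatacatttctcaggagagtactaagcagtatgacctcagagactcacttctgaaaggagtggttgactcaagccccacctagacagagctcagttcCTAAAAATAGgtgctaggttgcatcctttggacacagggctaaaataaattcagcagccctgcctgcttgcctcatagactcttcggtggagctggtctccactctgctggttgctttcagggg
In Prune2 both half-sites read CGTCA, that is, TGACG on the other strand, at positions 26 and 95 counted from the first base printed. In Rsrp1 the half-sites began at positions 108 and 232, and in Tceal7 at position 206. Mme, with 3 annotated starts, Rasl11b, Arid5a and Prkag3 held none of the 4 motifs in these windows, and neither the full cyclic AMP element nor the direct repeat was found in any of the 8 genes. Of 32851 mouse promoters of the same length, 20.8% held the half-site, 1.79% the full element, 3.69% the MEF2-type core and 0.015% the direct repeat. A match describes the letters only, and no binding was measured.

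Libraries held 30791885 to 78913915 assigned reads, and values are normalised CPM, that is, read counts scaled by each library's effective size. Within groups, PTU+PHE heart 3 and PTU+PHE+PRO heart 2 stood farthest from their partners. A pair that holds 1 of them had a median chi-square per gene of 22.6 to 42.0, against 2.74 to 14.4 for the other pairs. Of the PHE+PRO group, 2 columns carried the same name and are called 2a and 2b here. A value or call that leaving out these libraries turned round, ended or brought about is also given without them. Saline hearts of set A and set B with the same number deviated together from their group means, with a correlation across genes of 0.86 to 0.93, and the labels do not say whether they are the same animals. Cardiomyocyte markers were abundant in every heart. Of the 5 genes of the atrial list, the light chain Myl7 lay between 0.0147 and 0.865 CPM and sarcolipin, Sln, at 0.177 CPM or less. These genes were near 0 in tissue labelled whole heart, but the others of the list went higher. Over all hearts Myl4 lay at 2.844 to 10.274 CPM, Nppa at 2.3117 to 545.6058 CPM and Bmp10 at 0 to 6.1976 CPM. How much atrial tissue the samples held was not tested.

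Levels per length of exon covered a wide range. In saline hearts of set B the mean was 121 CPM per kb for Rsrp1, then 18.6 for Xirp2, 12.2 for Rasl11b and 11.1 for Syt7. The other 6 genes lay between 0.86 CPM per kb (Tceal7) and 2.23 CPM per kb (Prune2). For the 10 genes, log2 fold changes with propranolol set hearts with PRO over the matched hearts without it, are given ± SE with n = 3 hearts per group, and are a description without a test, because these contrasts chose the genes. In bulk RNA, fewer cells of a type and less RNA per cell cannot be told apart.

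**Figure D1:**
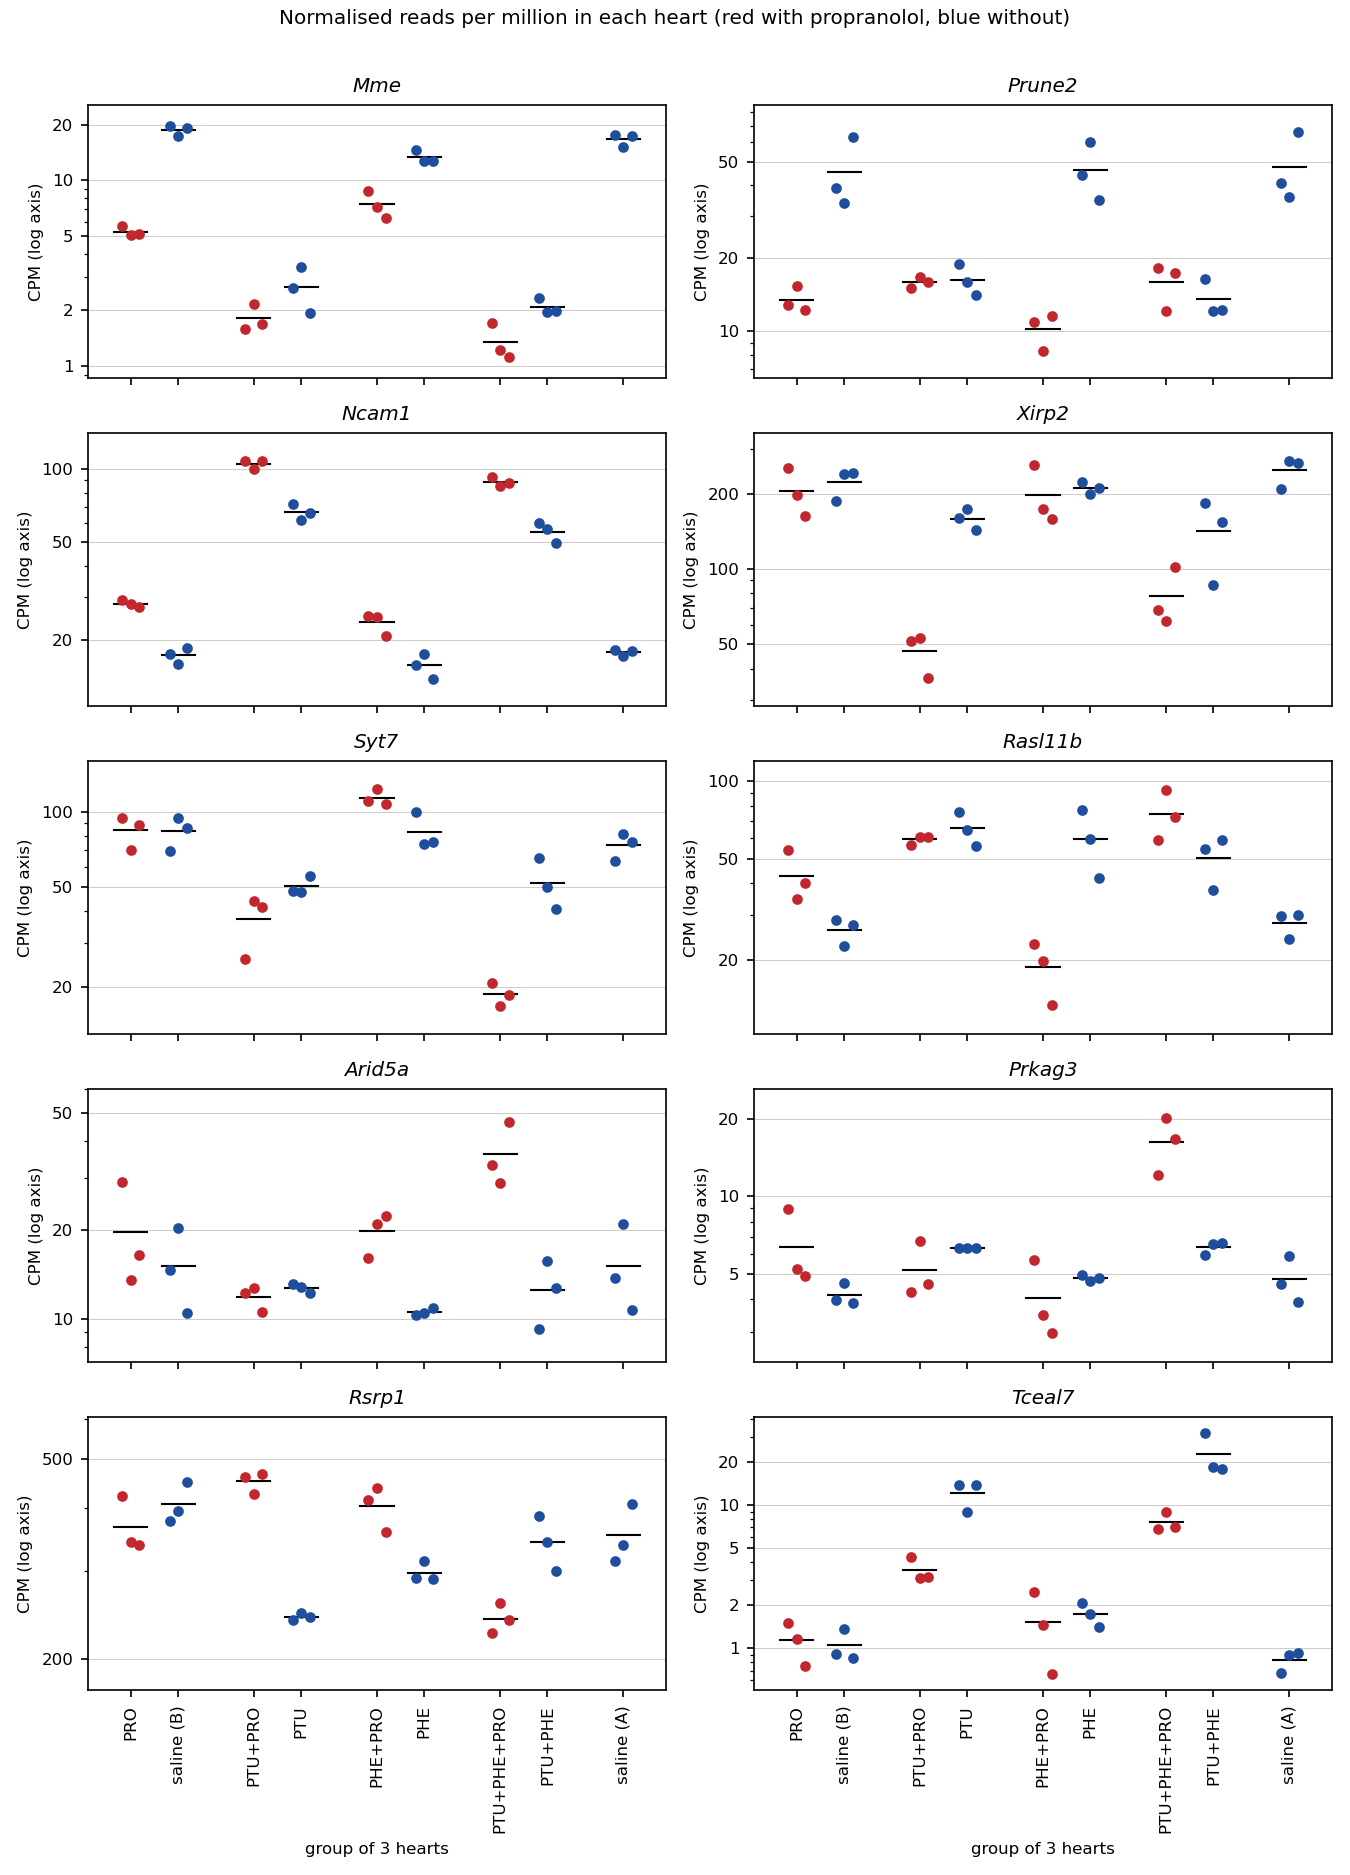
CPM (log axis) of each gene in every heart of the 9 groups, red with propranolol and blue without, with a black line at each group mean. The 3 PRO hearts lie below the 3 saline hearts of set B for Mme and Prune2, and the hearts with PRO lie above their partners on all 4 backgrounds for Ncam1.

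Mme encodes neprilysin, a zinc peptidase of the cell surface that cleaves natriuretic peptides, bradykinin and other small peptides (ENSMUSG00000027820, chromosome 3, 63241537 to 63386030, plus strand, mm10). Its level was 5.68, 5.09 and 5.12 CPM in PRO hearts, against 19.7, 17.3 and 19.1 CPM in saline hearts of set B. The groups did not overlap and Mme was 3.53-fold lower with propranolol, a log2 fold change of -1.82 ± 0.17. With phenoxybenzamine the values were 8.79, 7.17 and 6.31 CPM in PHE+PRO hearts, against 14.7, 12.7 and 12.7 CPM in PHE hearts. Again all 3 lay below (-0.85 ± 0.17). With PHE+PRO heart 1 as the only PHE+PRO library, the difference was -0.59. Under PTU the gene was low throughout, with 1.59, 2.16 and 1.69 CPM in PTU+PRO hearts, against 2.62, 3.42 and 1.94 CPM in PTU hearts, and the groups overlapped (-0.56 ± 0.18). Leaving out PTU heart 2 brought that value to -0.33. With both blockers, PTU+PHE+PRO hearts had 1.70, 1.22 and 1.11 CPM and PTU+PHE hearts had 2.34, 1.95 and 1.97 CPM, without overlap (-0.61 ± 0.19). Neprilysin RNA was thus lower with propranolol on all 4 backgrounds in its group means, with the widest gap where neither PTU nor PHE was given. The order of group means began with saline of set B at 18.7 ± 1.25 CPM (SD, n = 3) and saline of set A at 16.7 ± 1.35 CPM, whose hearts overlapped, and ended with PTU+PHE+PRO at 1.35 ± 0.312 CPM. The hearts of the 4 PTU groups lay below those of the 5 other groups.

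Ncam1 encodes the neural cell adhesion molecule, an immunoglobulin-domain protein that fetal heart muscle carries on its surface (ENSMUSG00000039542, chromosome 9, 49502136 to 49798925, minus strand). PRO hearts had 28.9, 28.1 and 27.3 CPM, against 17.5, 16.0 and 18.5 CPM in saline hearts (0.70 ± 0.09). PTU+PRO hearts had 108, 99.8 and 108 CPM, against 71.6, 62.0 and 65.9 CPM in PTU hearts (0.66 ± 0.09). On both backgrounds of set B every heart with propranolol lay above every partner without it. In set A, PHE+PRO hearts had 25.1, 24.8 and 20.7 CPM, against 15.7, 17.5 and 13.9 CPM in PHE hearts (0.58 ± 0.09). PTU+PHE+PRO hearts had 92.4, 85.1 and 87.3 CPM, against 59.9, 56.5 and 49.8 CPM in PTU+PHE hearts (0.67 ± 0.09). The 4 differences lay between 0.58 and 0.70 and no pair of groups overlapped, as for 0.141% of all genes higher with propranolol. With each heart left out in turn, the differences ran from 0.50 to 0.75. Its adjusted p was under 0.05 on all 4 (0.00523% of all genes), from which nothing is read, since these contrasts chose the gene. The order of group means followed PTU first and propranolol next, with 105 ± 4.63 CPM in PTU+PRO hearts at the top and 15.7 ± 1.83 CPM in PHE hearts at the bottom, and the hearts of the 6 highest groups did not overlap between neighbours. A gene on the opposite strand, Gm11149, shares 417 exonic bases with Ncam1 and had at most 0.235 CPM in any heart.

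**Figure D2:**
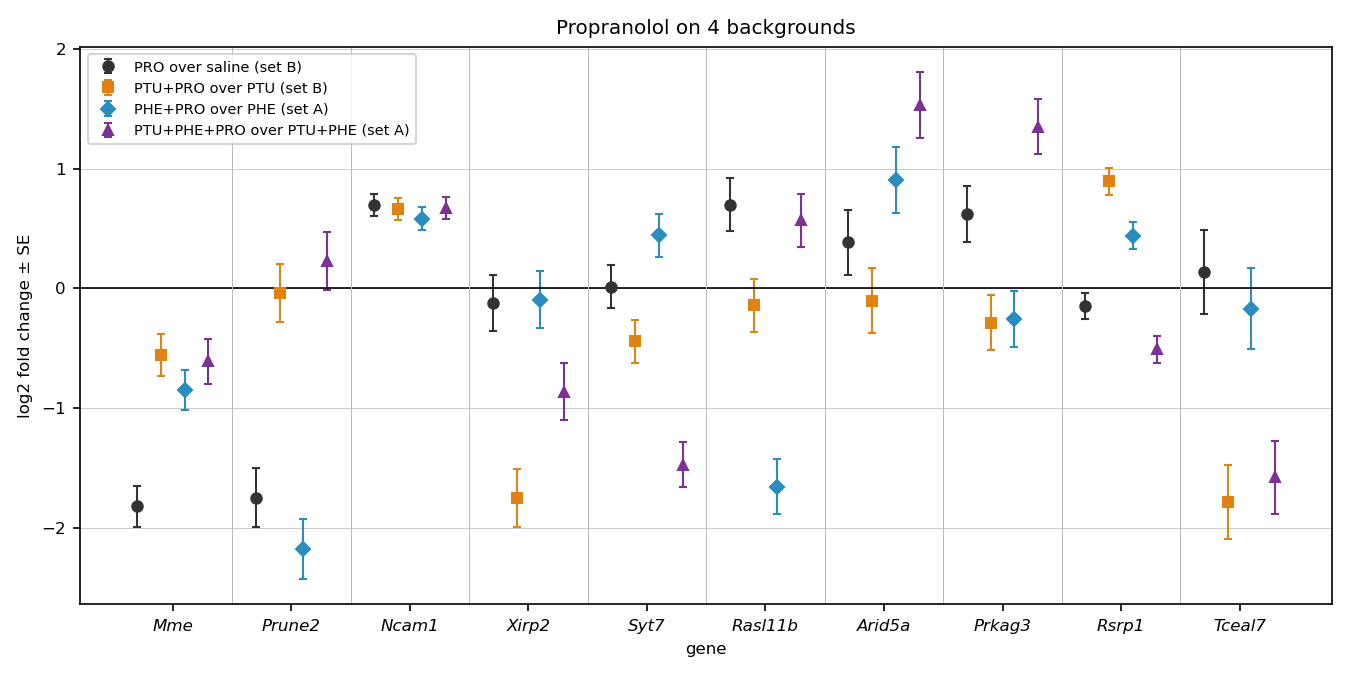
Log2 fold change with propranolol (points) ± SE (bars) for each gene on the saline, PTU, PHE and PTU+PHE backgrounds, 3 hearts per group, with 0 marking no difference. The 4 points of Ncam1 lie together between 0.58 and 0.70, while those of Rasl11b range between -1.66 and 0.70 and those of Prune2 between -2.18 and 0.23.

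Prune2 encodes a large protein with a BCH domain, a module that binds small GTPases and their regulators (ENSMUSG00000039126, chromosome 19, 16956118 to 17223932, plus strand). Its promoter is the first of the 4 shown. Hearts had 12.9, 15.3 and 12.2 CPM with PRO, against 39.0, 33.9 and 63.1 CPM with saline, and did not overlap (-1.75 ± 0.25). Without saline heart 3, the highest, the difference was -1.43. PHE+PRO hearts had 10.9, 8.33 and 11.6 CPM, against 44.2, 60.4 and 34.7 CPM in PHE hearts, which is 4.52-fold lower (-2.18 ± 0.25). All 3 again lay below, and with heart 1 alone in the PHE+PRO group the difference was -2.08. The PTU pairs looked different. PTU+PRO hearts had 15.1, 16.7 and 16.1 CPM, against 18.9, 16.0 and 14.1 CPM in PTU hearts (-0.04 ± 0.24). PTU+PHE+PRO hearts had 18.2, 12.1 and 17.4 CPM, against 16.4, 12.1 and 12.2 CPM in PTU+PHE hearts (0.23 ± 0.24). On both PTU backgrounds the hearts overlapped and the differences were within 1 SE of 0. The 3 highest group means, saline of set A, PHE and saline of set B at 45.3 to 47.6 CPM, overlapped one another and lay above the other 6 groups, which had means of 10.3 to 16.3 CPM.

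Xirp2 encodes an actin-binding protein with Xin repeats that sits at the intercalated discs and Z-lines of heart muscle (ENSMUSG00000027022, chromosome 2, 67446002 to 67526614, plus strand). It did not separate by propranolol in hearts without PTU. Its level was 254, 197 and 162 CPM in PRO hearts, against 186, 240.3 and 241 CPM in saline hearts (-0.12 ± 0.24). In PHE+PRO hearts it was 259.6, 173 and 158 CPM, against 222, 199 and 209 CPM in PHE hearts (-0.09 ± 0.24). Both pairs overlapped, and with PHE+PRO heart 1 alone in its group the difference on PHE was 0.32. With PTU, by contrast, PTU+PRO hearts had 51.4, 52.9 and 36.7 CPM, against 159, 173 and 144 CPM in PTU hearts, which is 3.38-fold lower without overlap (-1.76 ± 0.24). Values of Xirp2 were 68.8, 62.2 and 102 CPM in PTU+PHE+PRO hearts, against 183, 86.5 and 154 CPM in PTU+PHE hearts. Here PTU+PHE heart 2 lay below PTU+PHE+PRO heart 3, so the groups overlapped (-0.86 ± 0.24, and -0.68 without the 2 libraries that stood apart). PTU+PRO was the lowest group at 47.0 ± 8.91 CPM (SD, n = 3), and the 8 other groups formed a chain in which each overlapped the next. An antisense model, Gm13601, shares 168 exonic bases and had at most 0.264 CPM.

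Syt7 encodes synaptotagmin 7, a membrane calcium sensor with slow kinetics that promotes fusion of vesicles and lysosomes (ENSMUSG00000024743, chromosome 19, 10389090 to 10453180, plus strand). PRO hearts had 94.0, 70.1 and 88.5 CPM and saline hearts had 69.8, 94.0 and 86.4 CPM, with overlap (0.01 ± 0.18). Syt7 had 109.8, 123 and 107 CPM in PHE+PRO hearts, against 99.5, 74.4 and 75.7 CPM in PHE hearts (0.44 ± 0.18). All 3 PHE+PRO hearts lay above, and the group was the highest of the 9. With PTU the gene was lower with propranolol: PTU+PRO hearts had 25.9, 44.0 and 41.8 CPM, against 48.4, 47.9 and 55.5 CPM in PTU hearts (-0.44 ± 0.18). Values of Syt7 were 20.8, 16.8 and 18.6 CPM in PTU+PHE+PRO hearts, against 65.2, 50.0 and 41.0 CPM in PTU+PHE hearts (-1.47 ± 0.18). Neither PTU pair overlapped, and the second difference was 2.78-fold and stood at -1.56 without the 2 libraries that stood apart. Between PHE+PRO at 113 ± 8.27 CPM and PTU+PHE+PRO at 18.7 ± 1.99 CPM, the next lowest group was PTU+PRO, and the 6 remaining groups overlapped in a chain. The opposite-strand model Gm26859 shares 384 exonic bases and had at most 0.0727 CPM.

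Rasl11b encodes a small GTPase of the Ras superfamily without the lipid anchor of classical Ras proteins (ENSMUSG00000049907, chromosome 5, 74195286 to 74199481, plus strand). PRO hearts had 53.8, 34.7 and 40.0 CPM, against 28.9, 22.8 and 27.4 CPM in saline hearts, all above (0.70 ± 0.22). PHE+PRO hearts had 23.3, 19.9 and 13.4 CPM, against 77.1, 59.5 and 41.8 CPM in PHE hearts, all below (-1.66 ± 0.23). The direction was therefore opposite on these backgrounds, and the second difference was -1.34 with PHE+PRO heart 1 alone. The Rasl11b level was 56.4, 60.9 and 60.9 CPM in PTU+PRO hearts, against 76.1, 64.4 and 56.1 CPM in PTU hearts (-0.14 ± 0.22). Values of Rasl11b were 58.9, 92.6 and 72.7 CPM in PTU+PHE+PRO hearts, against 54.3, 37.6 and 59.1 CPM in PTU+PHE hearts (0.57 ± 0.22). Both PTU pairs overlapped. PHE+PRO hearts at 18.8 ± 5.03 CPM and the saline groups overlapped at the bottom of the order and lay below the other 6 groups.

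Prkag3 encodes the gamma 3 subunit of AMP-activated protein kinase, the energy sensor of the cell, and this subunit is best known from fast skeletal muscle (ENSMUSG00000006542, chromosome 1, 74738922 to 74749221, minus strand). It stood out in 1 group. PTU+PHE+PRO hearts had 12.1, 20.0 and 16.7 CPM, against 5.93, 6.57 and 6.63 CPM in PTU+PHE hearts, 2.55-fold higher without overlap (1.35 ± 0.23, and 1.19 without the 2 libraries that stood apart). PRO hearts had 8.97, 5.24 and 4.93 CPM, against 3.97, 4.62 and 3.87 CPM in saline hearts (0.62 ± 0.23). These did not overlap either, but PRO heart 1 was well above its partners and the difference was 0.30 without it. PTU+PRO hearts had 4.29, 6.70 and 4.60 CPM, against 6.34, 6.34 and 6.33 CPM in PTU hearts (-0.29 ± 0.23). PHE+PRO hearts had 5.67, 3.49 and 2.97 CPM, against 4.99, 4.72 and 4.83 CPM in PHE hearts (-0.26 ± 0.24, and 0.24 with PHE+PRO heart 1 alone). On these backgrounds the hearts overlapped. The 8 groups other than PTU+PHE+PRO had means of 4.04 to 6.38 CPM and formed an overlapping chain. Skeletal muscle markers were low in every heart, with 3.21 to 4.87 CPM summed over 8 genes in PTU+PHE+PRO hearts, against 2.503 to 2.628 CPM in PTU+PHE hearts. The sums did not overlap, 4 of the 8 genes had enough reads to be tested, and 1 of these 4 was called higher. Their part in the Prkag3 difference was not tested. The fast skeletal myosin Myh1 lay at 0 to 0.0151 CPM in PTU+PHE+PRO hearts and 0 to 0.0166 CPM in PTU+PHE hearts, and Myh4 at 0.0293 to 0.0479 CPM and 0 to 0.0407 CPM in the same order of groups. Both are near the floor. Over the 4 tested genes of the list the median difference with propranolol on PTU+PHE was 0.66.

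Arid5a encodes an AT-rich interaction domain protein that binds and stabilises mRNA of inflammatory genes (ENSMUSG00000037447, chromosome 1, 36307733 to 36324029, plus strand). Values of Arid5a were 33.4, 28.9 and 46.4 CPM in PTU+PHE+PRO hearts, against 9.24, 15.7 and 12.7 CPM in PTU+PHE hearts, 2.89-fold higher (1.53 ± 0.28, and 1.67 without the 2 libraries that stood apart). Arid5a had 16.1, 21.0 and 22.2 CPM in PHE+PRO hearts, against 10.3, 10.5 and 10.9 CPM in PHE hearts (0.90 ± 0.28). Neither pair overlapped, so both phenoxybenzamine backgrounds gave higher values with propranolol. With PHE+PRO heart 1 alone, the difference on PHE was 0.62. PRO hearts had 29.1, 13.6 and 16.5 CPM, against 14.6, 20.4 and 10.5 CPM in saline hearts (0.38 ± 0.27). The Arid5a level was 12.2, 12.7 and 10.6 CPM in PTU+PRO hearts, against 13.1, 12.8 and 12.2 CPM in PTU hearts (-0.10 ± 0.27). In set B the hearts overlapped, and without PRO heart 1 the difference on saline was -0.0011. The mean in PTU+PHE+PRO hearts, 36.2 ± 9.12 CPM, lay above all others, and the remaining 8 groups overlapped in a chain between 10.6 and 19.8 CPM. Granulocyte markers summed over 6 genes to 24.9 to 79.9 CPM in PTU+PHE+PRO hearts, against 45.0 to 99.6 CPM in PTU+PHE hearts, and to 10.9 to 22.9 CPM in PHE+PRO hearts, against 18.5 to 35.3 CPM in PHE hearts. On PHE and on PTU+PHE the groups of this sum overlapped and its range was lower with propranolol, where Arid5a was higher.

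Rsrp1 encodes an arginine- and serine-rich protein, a composition typical of splicing factors (ENSMUSG00000037266, chromosome 4, 134923592 to 134927671, plus strand). Its promoter, with 2 half-sites, is shown above. PTU+PRO hearts had 460.0, 427 and 467 CPM, against 239, 247 and 242 CPM in PTU hearts (0.89 ± 0.11). Rsrp1 had 415, 438 and 358 CPM in PHE+PRO hearts, against 289, 314 and 288 CPM in PHE hearts (0.44 ± 0.11). Both pairs were apart, with the propranolol hearts above. PTU+PHE+PRO hearts, in the opposite direction, had 225, 258 and 239 CPM, against 385, 342 and 299 CPM in PTU+PHE hearts, all below (-0.51 ± 0.11, and -0.66 without the 2 libraries that stood apart). PRO hearts had 422, 341 and 337 CPM and saline hearts had 376, 395 and 449 CPM, with overlap (-0.15 ± 0.11). The PTU and PTU+PHE+PRO groups, at 243 ± 4.29 and 241 ± 16.6 CPM, overlapped each other and lay below the 7 other groups.

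Tceal7 encodes a small nuclear protein of the transcription elongation factor A-like family on the X chromosome (ENSMUSG00000079428, chromosome X, 136214779 to 136226100, plus strand). It was scarce without PTU. PRO hearts had 1.51, 1.17 and 0.757 CPM, against 0.912, 1.38 and 0.861 CPM in saline hearts (0.14 ± 0.35). Tceal7 had 2.48, 1.47 and 0.663 CPM in PHE+PRO hearts, against 2.07, 1.74 and 1.42 CPM in PHE hearts (-0.17 ± 0.34, and 0.51 with PHE+PRO heart 1 alone), and both pairs overlapped. Under PTU the level was higher and lay lower with propranolol. The Tceal7 level was 4.35, 3.09 and 3.16 CPM in PTU+PRO hearts, against 13.7, 8.99 and 13.8 CPM in PTU hearts, 3.44-fold lower (-1.78 ± 0.31). Values of Tceal7 were 6.79, 8.93 and 7.04 CPM in PTU+PHE+PRO hearts, against 31.7, 18.4 and 17.8 CPM in PTU+PHE hearts (-1.58 ± 0.31, and -1.87 without the 2 libraries that stood apart). Neither PTU pair overlapped, and the order of means was PTU+PHE, PTU, PTU+PHE+PRO and PTU+PRO, each clear of the next, above 5 groups with at most 1.74 CPM. Tceal7 shares 223 exonic bases with Bex1 on the opposite strand, and the strand setting of the counting is not given, so reads of that stretch cannot be told apart. Bex1 had 12.67 to 13.54 CPM in PTU+PRO hearts, against 22.3 to 26.8 CPM in PTU hearts, and 22.1 to 55.1 CPM in PTU+PHE+PRO hearts, against 47.6 to 72.7 CPM in PTU+PHE hearts. It thus lay lower with propranolol on PTU alone and overlapped on PTU+PHE. Its part in the Tceal7 values was not tested.

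Counted over the 10 genes, the saline background had 1 gene higher and 2 lower past an adjusted p of 0.05 (edgeR quasi-likelihood test), where 0.167% of all genes were called higher and 0.105% lower. PTU had 2 higher and 2 lower (0.288% and 0.356% of all genes), PHE had 2 higher and 3 lower (3.1% and 2.71%), and PTU+PHE had 3 higher and 3 lower (1.51% and 1.36%). As the same contrasts chose the genes, nothing is read from these counts. Hearts with and without propranolol did not overlap for 5 genes on saline (19.4% of all genes), 5 on PTU (28.6%), 7 on PHE (27.6%) and 7 on PTU+PHE (11.7%). Mme, Ncam1 and Xirp2 kept 1 sign of difference on all 4 backgrounds. Xirp2 did so without overlap only on PTU, and with PHE+PRO heart 1 alone in its group its difference on PHE was 0.32. With each heart left out in turn, the Xirp2 difference reached as high as 0.0321 on saline and 0.0553 on PHE, so its sign turned on both.

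Thyroid block was compared by setting hearts with PTU against hearts without it, averaging over propranolol. This contrast is orthogonal to the 4 that chose the genes. Its averages still hold the groups with propranolol, so a change confined to a single such group enters them. The p-values do not tell such a change from a PTU difference without propranolol. In set B (PTU and PTU+PRO against saline and PRO), 3 of the 10 genes rose, 6 fell and 1 did not pass, where 22.6% of all genes rose and 22.1% fell. The adhesion molecule Ncam1 rose, with a log2 fold change of 1.92 ± 0.07 (adjusted p = 1.1e-16, edgeR quasi-likelihood test with Benjamini-Hochberg adjustment over 19119 genes). Tceal7 rose by 2.58 ± 0.24 (adjusted p = 5e-09) and the small GTPase Rasl11b by 0.89 ± 0.16 (adjusted p = 6.9e-05). For all 3, every PTU-treated heart lay above every heart without PTU, as for 15.7% of all genes. Neprilysin, Mme, had the steepest fall at -2.18 ± 0.13 (adjusted p = 1e-12), followed by Xirp2 at -1.30 ± 0.17 (adjusted p = 1.2e-06) and Syt7 at -0.95 ± 0.13 (adjusted p = 1.7e-06). For 2 of the 6 genes that fell the hearts did not overlap (16.8% of all genes). Some of these differences were unlike in size in hearts with and without propranolol. Xirp2 averaged 159 CPM in PTU and 223 CPM in saline hearts, but 47.0 CPM in PTU+PRO and 204 CPM in PRO hearts. In the same order of groups, Mme averaged 2.66 and 18.7 CPM, then 1.81 and 5.29 CPM. Tceal7 averaged 12.2 and 1.05 CPM, then 3.53 and 1.15 CPM. Prune2 fell by 0.62 ± 0.17 (adjusted p = 0.005). That average joins unlike pairs: Prune2 averaged 16.3 CPM in PTU hearts and 45.3 CPM in saline hearts, but 15.9 CPM in PTU+PRO hearts and 13.48 CPM in PRO hearts. Arid5a (-0.50 ± 0.19, adjusted p = 0.039) and Rsrp1 (-0.22 ± 0.08, adjusted p = 0.025) were weaker calls. Rsrp1 averaged 243 CPM in PTU hearts and 407 CPM in saline hearts, but 451 CPM in PTU+PRO hearts and 367 CPM in PRO hearts. Prkag3 did not pass (0.16 ± 0.16, adjusted p = 0.47). The Arid5a call was lost (adjusted p of 0.051 to 0.17) when any 1 of 9 hearts was left out, namely PRO 1, saline 1 or 2, or any of the 3 PTU or 3 PTU+PRO hearts. The Rsrp1 call was lost (0.051 to 0.079) without PRO 1, saline 3, PTU 1 or PTU+PRO 2.

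Under phenoxybenzamine (PTU+PHE and PTU+PHE+PRO against PHE and PHE+PRO, set A), 5 genes rose and 5 fell, where 29.6% of all genes rose and 26.5% fell. Tceal7 rose by 2.98 ± 0.24 (adjusted p = 2.9e-10), Ncam1 by 1.86 ± 0.07 (adjusted p = 1.7e-16), Prkag3 by 1.20 ± 0.17 (adjusted p = 1.8e-06), Rasl11b by 0.87 ± 0.16 (adjusted p = 6.9e-05) and Arid5a by 0.56 ± 0.19 (adjusted p = 0.017). Mme fell by 2.56 ± 0.13 (adjusted p = 7.6e-14), Syt7 by 1.63 ± 0.13 (adjusted p = 3e-10), Xirp2 by 0.96 ± 0.17 (adjusted p = 4.5e-05), Prune2 by 0.57 ± 0.17 (adjusted p = 0.0072) and Rsrp1 by 0.27 ± 0.08 (adjusted p = 0.0054). Hearts with PTU lay wholly above the others for 3 genes (11.1% of all genes) and wholly below for 2 (11.6%). The median size of the difference over the 10 genes was 0.92 in set B and 1.08 in set A, where all tested genes had 0.31 and 0.40. The genes were chosen for differences between groups that enter these averages, so nothing is read from the larger medians. Without PTU+PHE heart 3 and PTU+PHE+PRO heart 2 the fall of Prune2 no longer passed (-0.46, adjusted p = 0.058). The Arid5a rise was lost (adjusted p of 0.057 to 0.06) without PTU+PHE 2, PTU+PHE+PRO 3 or PHE+PRO 1. For several of the genes these averages join pairs that differed with propranolol. Rasl11b averaged 74.7 CPM in PTU+PHE+PRO hearts and 18.8 CPM in PHE+PRO hearts, but 50.3 CPM in PTU+PHE hearts and 59.5 CPM in PHE hearts. Its mean was thus higher with PTU in hearts with propranolol and lower in hearts without it. The Prune2 means went the same way, with 15.9 CPM in PTU+PHE+PRO hearts and 10.3 CPM in PHE+PRO hearts, but 13.6 CPM in PTU+PHE hearts and 46.4 CPM in PHE hearts. Rsrp1 went the other way, with means of 241 CPM in PTU+PHE+PRO hearts and 404 CPM in PHE+PRO hearts, but 342 CPM in PTU+PHE hearts and 297 CPM in PHE hearts. Arid5a and Prkag3 were high in PTU+PHE+PRO hearts and not in PTU+PHE hearts. Syt7 was lower with PTU in both pairs, but by unlike amounts. Its means were 18.7 CPM in PTU+PHE+PRO hearts and 113 CPM in PHE+PRO hearts, but 52.0 CPM in PTU+PHE hearts and 83.2 CPM in PHE hearts.

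**Figure D3:**
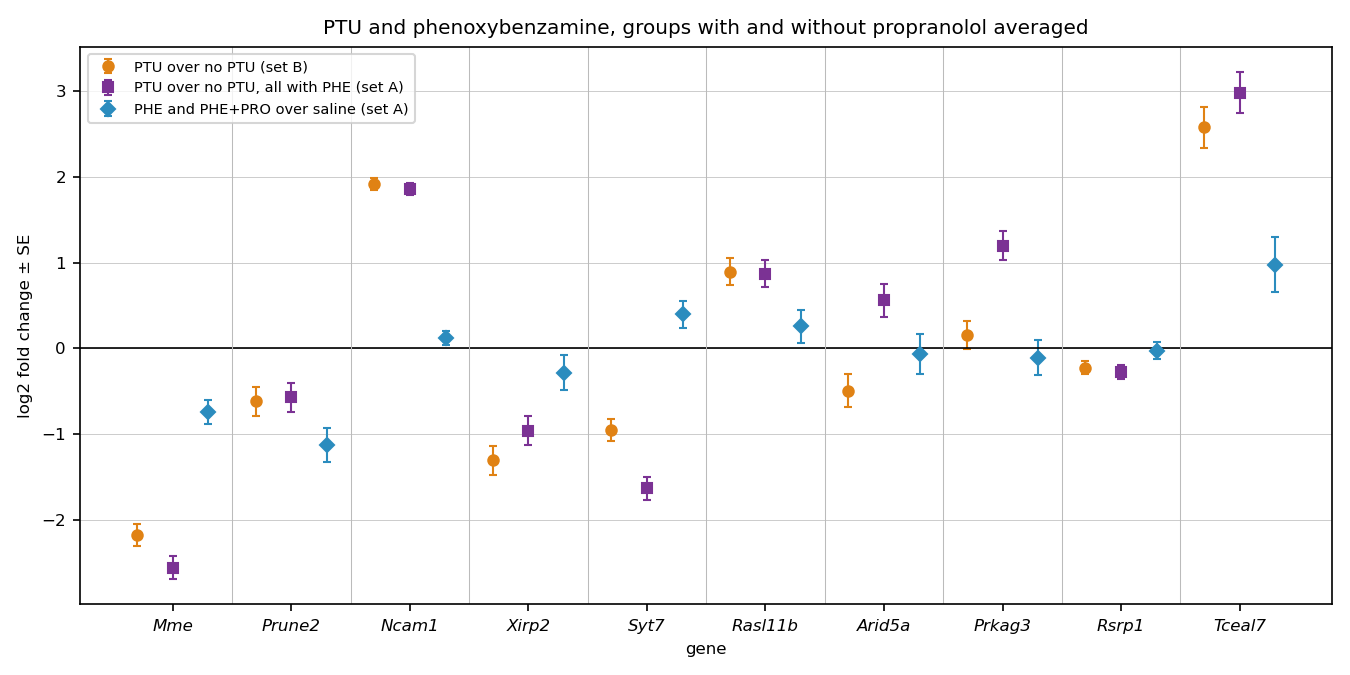
Log2 fold change (points) ± SE (bars) of the 10 genes for PTU in set B, for PTU under PHE in set A and for the PHE groups over saline in set A, with groups with and without propranolol averaged. Tceal7 and Ncam1 lie highest and Mme lowest in both PTU contrasts, while Arid5a is at -0.50 in set B and 0.56 in set A.

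The size of the PTU difference in set A minus that in set B was tested directly, and 3 of the 10 genes passed, where 9.83% of all genes were called higher and 11.6% lower. Syt7 fell more under PTU in set A (-0.68 ± 0.18, adjusted p = 0.0097). Its means without propranolol were 52.0 CPM in PTU+PHE hearts and 83.2 CPM in PHE hearts, and 50.6 CPM in PTU hearts and 83.4 CPM in saline hearts. With propranolol they were 18.7 CPM in PTU+PHE+PRO hearts and 113 CPM in PHE+PRO hearts, and 37.2 CPM in PTU+PRO hearts and 84.2 CPM in PRO hearts. Arid5a (1.06 ± 0.27, adjusted p = 0.009) and Prkag3 (1.04 ± 0.23, adjusted p = 0.0035) were higher there. Leaving out the 2 libraries that stood apart, or the 2 unnumbered PHE+PRO libraries, kept each of these calls (adjusted p of 0.0094 to 0.036). All hearts of set A in this contrast had PHE and none of set B did, so set and phenoxybenzamine cannot be told apart.

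Phenoxybenzamine was compared through the mean of PHE and PHE+PRO against saline of set A. No gene of the 10 rose and 2 fell, where 4.52% of all genes rose and 5.74% fell. Mme fell by 0.74 ± 0.14 (adjusted p = 0.004) and Prune2 by 1.12 ± 0.20 (adjusted p = 0.003). Set A has no group with propranolol alone, so this average also holds the propranolol difference and is no test of phenoxybenzamine by itself. Hearts with PHE alone had 14.7, 12.7 and 12.7 CPM of Mme, against 17.7, 15.2 and 17.3 CPM in saline hearts of set A, all below. For Prune2 the PHE hearts (44.2, 60.4 and 34.7 CPM) overlapped the saline hearts of set A (41.0, 35.9 and 66.0 CPM), and the low values were those of PHE+PRO. Without the 2 unnumbered PHE+PRO libraries the Mme call was lost (-0.64, adjusted p = 0.064). Tceal7 came close (0.98 ± 0.32, adjusted p of 0.05, just above the threshold) and passed in 5 of the 27 fits that left out 1 heart each. It also passed in DESeq2 (0.97, adjusted p = 0.014), without the 2 unnumbered PHE+PRO libraries (1.29, adjusted p = 0.033) and without the 2 libraries that stood apart (0.96, adjusted p = 0.04). The saline hearts of both sets may share animals, so this contrast may not be independent of the saline contrast that chose the genes. For the 10 genes, saline hearts of set A differed from the same-numbered hearts of set B by -0.60 to 0.35 on the log2 scale.

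Genes of the same pathways and families were followed from lists that hold none of the 10. The calls in set A rest on the libraries named above. Without the 2 unnumbered PHE+PRO libraries, 1 of the 23 list genes called on PHE passed (Nr4a1, 3.599 ± 0.753, adjusted p = 0.041). Without PTU+PHE heart 3 and PTU+PHE+PRO heart 2, 3 of the 9 called on PTU+PHE passed (Adcy7, Arid1a and Prkab2). None of these genes turned its direction in these fits. Of 42 genes of beta receptors and cyclic AMP signalling, none was called with propranolol on saline, where the edgeR quasi-likelihood test gave 0.167% of all genes higher and 0.105% lower. On PTU 1 fell, Pde8a, a cyclic AMP phosphodiesterase (-0.42 ± 0.08, adjusted p = 0.0082). On PHE 3 rose and 2 fell, among them Pde4b, another such phosphodiesterase (0.65 ± 0.12, adjusted p = 0.0033). On PTU+PHE the adenylyl cyclase Adcy7 rose (0.78 ± 0.20, adjusted p = 0.031) and the receptor kinase Grk5 fell (-0.54 ± 0.14, adjusted p = 0.037). Of 18 genes that respond to cyclic AMP, 6 rose on PHE, none passed on saline or on PTU, and 1 fell on PTU+PHE. The orphan nuclear receptor Nr4a1 averaged 312 CPM in PHE+PRO hearts and 16.6 CPM in PHE hearts (4.22 ± 0.65, adjusted p = 0.0011). The kinase Sik1 averaged 235 and 31.3 CPM in the same groups (2.91 ± 0.44, adjusted p = 0.00087). Nr4a2 (3.69 ± 0.69, adjusted p = 0.0036) and the small GTPase Gem (2.35 ± 0.40, adjusted p = 0.0017) rose with them. All 3 PHE+PRO hearts lay above the PHE hearts for each of these 4 genes. For Nr4a1, saline hearts of set A had 56.3 to 246 CPM. The PHE hearts, at 12.7 to 24.4 CPM, lay below these, and the PHE+PRO hearts, at 201 to 469 CPM, overlapped them. On saline the median of the 18 was -0.43 against -0.0024 for all genes.

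Around neprilysin, 14 natriuretic peptide and peptidase genes were tested and 1 rose and 1 fell with propranolol on PTU, with none called on the 3 other backgrounds. Nppa, the atrial natriuretic peptide and a neprilysin substrate, averaged 360.4 CPM in PTU+PRO hearts and 15.3 CPM in PTU hearts (4.56 ± 1.03, adjusted p of 0.05, just under the threshold). Mmel1, the closest relative of neprilysin, averaged 0.532 and 1.82 CPM in these groups (-1.77 ± 0.37, adjusted p = 0.019). The relatives of Ncam1 gave 1 call among 9 genes, the polysialyltransferase St8sia4, which fell on PTU+PHE (-0.70 ± 0.19, adjusted p = 0.045). Of 15 synaptotagmin genes, Syt15 (-1.24 ± 0.22, adjusted p = 0.002) and Syt3 (-0.70 ± 0.21, adjusted p = 0.046) fell on PHE, where Syt7 was higher, and Doc2b, at no more than 0.314 CPM on average, rose. Of 21 Xin partners and disc genes, 1 rose on PTU, 2 fell on PHE, 2 rose on PTU+PHE and none passed on saline. Xirp1, the nearest relative of Xirp2, fell on PHE (-0.59 ± 0.11, adjusted p = 0.0021), as did the titin-associated protein Ankrd1 (-1.41 ± 0.28, adjusted p = 0.0052). On PTU+PHE, Ankrd1 rose (1.01 ± 0.28, adjusted p of 0.05, just under the threshold), with hearts that overlapped. On PTU, the desmosomal cadherin Dsg2 rose (0.65 ± 0.13, adjusted p = 0.015).

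Of 12 other small GTPase genes of the Ras-like families, 1 fell on saline (Rasl10b, -0.60 ± 0.13, adjusted p = 0.043). On PHE 2 rose and 2 fell, with Rasl12 lower (-0.44 ± 0.11, adjusted p = 0.016) like Rasl11b and Rasd1 higher (1.58 ± 0.44, adjusted p = 0.039). Among 12 AMPK genes only Prkab2, a scaffold subunit of the kinase, was called: it fell on PHE (-0.32 ± 0.08, adjusted p = 0.015) and rose on PTU+PHE (0.41 ± 0.08, adjusted p = 0.0054), the background on which Prkag3 was higher. Of 11 ARID genes, Arid1a, a subunit of the BAF chromatin remodeller, rose on PTU+PHE (0.43 ± 0.11, adjusted p = 0.029) and no other was called. Among 18 SR kinases and splicing regulators, every call was a rise: Srpk3 on saline (0.51 ± 0.10, adjusted p = 0.023), Srsf6 (0.45 ± 0.09, adjusted p = 0.0044), Clk1 (0.58 ± 0.14, adjusted p = 0.014) and Clk2 on PHE, and Clk2 on PTU+PHE (0.32 ± 0.08, adjusted p = 0.028). None of 12 TCEAL and BEX genes was called with propranolol on any background. With PTU averaged over propranolol, 8 of these 12 rose and 1 fell in set B, and 10 rose and 1 fell in set A. Of all genes, 22.6% rose and 22.1% fell in set B, and 29.6% rose and 26.5% fell in set A. None of 4 relatives of Prune2 was called with propranolol.

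Markers of other cell types were read beside the genes. Cardiomyocyte markers summed over 8 genes to 28249.8 to 31354 CPM in PTU+PRO hearts and 31670.2 to 35646 CPM in PTU hearts, against 68333 to 79259.6 CPM in PRO hearts and 64954 to 73566 CPM in saline hearts. Their part in the PTU results was not tested. With propranolol the same sum overlapped on saline, PHE and PTU+PHE and lay just below on PTU. Sympathetic neuron markers, which bear on Ncam1 and Syt7, summed over 6 genes to 16.4 to 20.5 CPM in PRO hearts, against 10.2 to 14.4 CPM in saline hearts. In PTU+PRO hearts they summed to 3.21 to 3.43 CPM, against 2.19 to 2.86 CPM in PTU hearts, and 3 of the 6 were at 0 in some heart of each group. On both backgrounds the sums with propranolol lay above, as did Ncam1, while on PHE and PTU+PHE they overlapped, and their part in the Ncam1 difference was not tested. Over the 3 with enough reads to be tested, the median difference was -0.32 on saline and on PHE, where 1 was called lower, 0.41 on PTU and 0.38 on PTU+PHE, and none was called higher. Between PTU and saline hearts the direction was opposite: the mean of Ncam1 was 66.5 CPM in PTU hearts and 17.3 CPM in saline hearts, and the sum was lower in PTU hearts. Schwann cell markers summed to 18.8 to 21.0 CPM in PTU hearts, against 26.7 to 38.5 CPM in saline hearts, and overlapped between hearts with and without propranolol on saline, PTU and both PHE backgrounds. Fibroblast markers summed over 7 genes to 3904 to 4732 CPM in PRO hearts, against 4903 to 5360.0 CPM in saline hearts, and to 4278.0 to 4541 CPM in PTU+PRO hearts, against 5481 to 5882 CPM in PTU hearts. They lay below in both pairs of set B and overlapped in set A, and none was called with propranolol. Macrophage markers summed over 7 genes to 144 to 153 CPM in PRO hearts, against 172 to 198 CPM in saline hearts, and overlapped elsewhere. Smooth muscle and pericyte markers summed over 7 genes to 1547 to 1893 CPM in PRO hearts, against 1227 to 1339 CPM in saline hearts. Their sum also lay above with propranolol on PHE (1792 to 2015 CPM in PHE+PRO hearts, against 1351 to 1591 CPM in PHE hearts) and on PTU+PHE, and below on PTU. Erythroid markers lay below with propranolol on PTU (507 to 520.3 CPM in PTU+PRO hearts, against 742 to 837 CPM in PTU hearts) and on PHE. With PTU, all 7 macrophage markers were called lower in both sets, as were 5 of 7 endothelial markers in set B and 6 of 7 in set A. Of all genes, 22.1% were called lower in set B and 26.5% in set A. The part of these markers in the values of the 10 genes was not tested.

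How the genes varied together was described by Pearson r over 24 hearts, after centring log2 values within each of the 4 backgrounds, so that a difference with propranolol enters r and a difference with PTU or PHE does not. The hearts share libraries across genes and the genes were chosen by propranolol, so r is a description only. Xirp2 and Tceal7 had r = 0.85 and Mme and Prune2 had r = 0.77, while Mme and Ncam1 ran opposite at r = -0.78. Syt7 followed Tceal7 (0.66), and Prkag3 followed Arid5a (0.61) and Rasl11b (0.58). Among 10377 other genes with a name and at least 5 CPM on average, the most similar to Mme was Scn4b (r = 0.87), a beta subunit of the cardiac sodium channel, which was also nearest to Prune2 (0.84). Scn4b had 3.86 to 13.3 CPM in PRO hearts, against 36.5 to 60.0 CPM in saline hearts. Chd4 (0.86) and Sorcs2 (0.85) were nearest to Ncam1, Clic5 (0.86) and Pde8a (0.84) to Xirp2, and Tmem144 (0.85) and Dhdds (0.82) to Tceal7. Ranbp9 (0.78) was nearest to Syt7, Cxcr4 (0.88) and Ankrd1 (0.86) to Rasl11b, Habp2 (0.86) to Arid5a, Slmap (0.83) to Prkag3 and Ucp3 (0.80) to Rsrp1. On PHE, Ankrd1 was lower, as was Rasl11b, with 306 to 591 CPM in PHE+PRO hearts, against 1073 to 1215 CPM in PHE hearts.

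**Figure D4:**
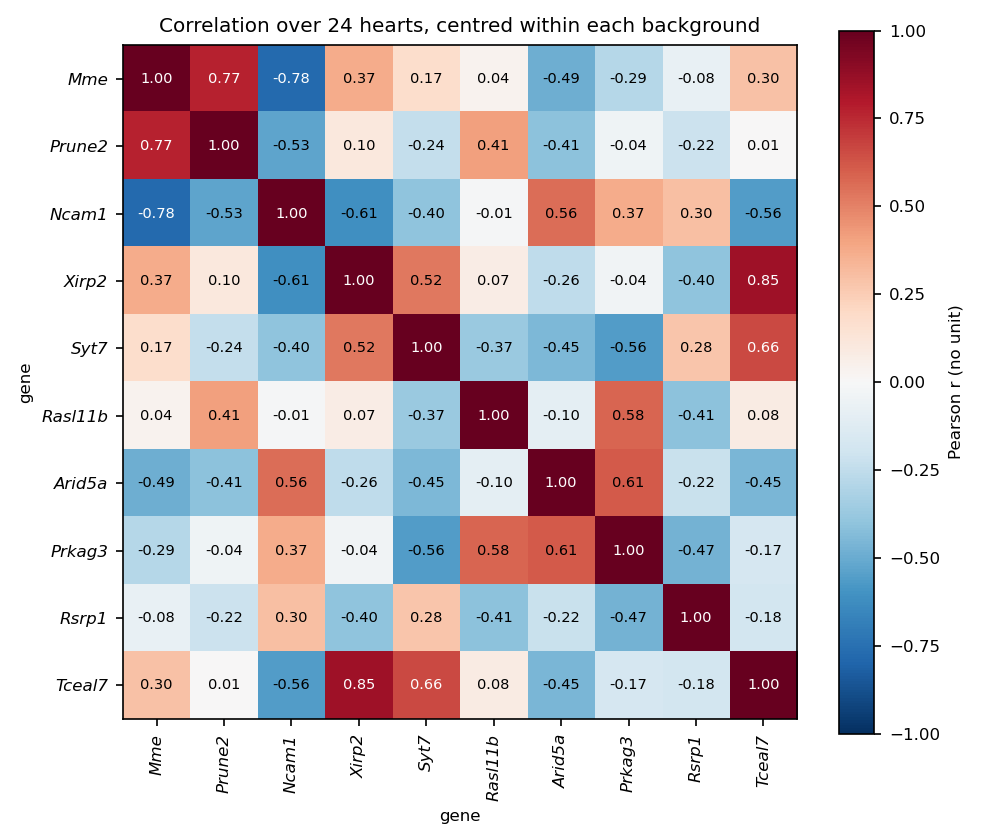
Pearson r between each pair of the 10 genes over 24 hearts, on log2 values centred within each background, with red for positive and blue for negative values. Xirp2 with Tceal7 (0.85) and Mme with Prune2 (0.77) are the reddest pairs, and Mme with Ncam1 (-0.78) is the bluest.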

How the data were processed

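Per the submitters' processing notes, reads were trimmed with cutadapt 1.9, aligned to mm10 with STAR 2.5.2b and counted per gene with featureCounts 1.5.1. The authors deposited raw counts, which are not normalised. Annotation release, strand setting and the handling of multimapping reads are not given in the sources used here. RNA was taken with Trizol from frozen hearts for TruSeq libraries, per the labels' protocols.

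The genes and lists were chosen with earlier results of these data known. Gene coordinates are mm10, from GENCODE M21. The filter filterByExpr of edgeR 4.0.16 (R 4.3.3, minimum count 10, minimum total 15) left 19119 genes, which were scaled by TMM. All 27 libraries entered a robust quasi-likelihood fit with a mean for each of 9 groups (18 residual degrees of freedom, prior count 0.125). To get the SE, the absolute log2 fold change was divided by the root of F. Genes with a two-sided adjusted p under 0.05 (Benjamini-Hochberg, over all genes) were called, and the scripts were tested on simulated data. The p-values measure the spread between these hearts, whose litters are not given.

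All 10 genes are named. Of each list, up to 4 called genes with the smallest p over the 4 propranolol contrasts are named. For likeness, the genes with the highest r on log2 values were taken. The other settings tried were RLE size factors, unfiltered counts, DESeq2 1.42.0, 1 set alone, a replicate block, sex, transcript length and leaving out each heart. After the data had been seen, fits without the 2 unnumbered PHE+PRO libraries or without the 2 libraries that stood apart were added. Library totals ran from 30791885 to 78913915 reads.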

Additional observations from a re-analysis of the deposited data

Results flagged for a closer look

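Of the 10 genes, 3 differed between the sets in their PTU effect by a test of the difference itself. Of all genes, 9.83% were called higher and 11.6% lower in that test. The effect under PHE minus the effect without PHE was -0.68 for Syt7, 1.06 for Arid5a and 1.04 for Prkag3 on the log2 scale, and set and phenoxybenzamine cannot be told apart in it. Each effect is an average over hearts with and without propranolol, which differed, and their means are given above. The test does not tell a set difference in the PTU effect from the propranolol difference on PTU+PHE, which helped choose the genes.

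Other results were picked out because every heart moved one way with propranolol on 1 background and every heart the opposite way on another, and these differences were not tested, since propranolol contrasts chose the genes. For Syt7 the difference with propranolol on PHE was 0.89 higher than on PTU and 1.92 higher than on PTU+PHE. For Rasl11b it was 2.36 higher on saline than on PHE. For Rsrp1 it was 1.40 higher on PTU than on PTU+PHE and 0.95 higher on PHE than on PTU+PHE. The comparisons that join saline or PTU with a PHE background also join set B with set A.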

How the results depend on the processing

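No difference of the 10 genes that passed a test changed its direction in any alternative. The share of all genes called was less stable and serves here only as a background. On saline 52 genes were called, with 118 when no genes were filtered, 211 in DESeq2, 406 with set B fitted alone, 89 with a transcript length offset, 104 with sex as a covariate, 79 without the 2 unnumbered PHE+PRO libraries and 149 without PTU+PHE 3 and PTU+PHE+PRO 2. On PTU 123 were called, with 202 unfiltered, 322 in DESeq2, 724 with set B alone and 284 without PTU+PHE 3 and PTU+PHE+PRO 2. On PHE 1112 were called, with 1730 in DESeq2, 232 with set A alone, 114 without the unnumbered libraries and 2575 without PTU+PHE 3 and PTU+PHE+PRO 2. On PTU+PHE 549 were called, with 1111 in DESeq2 and 70 with set A alone. For the PHE groups against saline 1962 were called, with 2956 in DESeq2, 131 with set A alone, 182 without the unnumbered libraries and 4273 without PTU+PHE 3 and PTU+PHE+PRO 2. Leaving out 1 heart at a time gave 17 to 103 calls on saline, 35 to 213 on PTU, 499 to 1650 on PHE, 229 to 1041 on PTU+PHE and 359 to 3271 for the PHE groups. The count moved by over 1.5 times without any PRO or saline heart of set B, PTU+PHE 3, PTU+PHE+PRO 1 or 2 (saline), without any PTU heart, PTU+PRO 2 or 3, PTU+PHE+PRO 1 or 2 (PTU), without any PHE heart, PHE+PRO 1 or 2a (PHE), without PTU+PHE 2 or 3 or any PTU+PHE+PRO heart (PTU+PHE), and without any saline heart of set A, PHE 3, PHE+PRO 2a or PTU+PHE+PRO 2 (PHE groups). The cause was not tested.

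The replicate block gave 79 calls on PHE and 122 for the PHE groups, where no gene of the 10 passed (0 against 2, Mme at adjusted p = 0.055 and Prune2 at adjusted p = 0.074), and 2565 against 4102 for the difference between the PTU effects, where Syt7 was lost (adjusted p = 0.058). It leaves out the 2 unnumbered PHE+PRO libraries. Numbers did not pair the hearts within a set, since same-numbered hearts had a median correlation of -0.08 and 13 of 40 pairs exceeded 0.1. Of the 10 genes, PTU called 9 in set B, with 7 to 9 when 1 heart was left out, 7 without a filter, 8 with set B alone and 8 with the block. Under PHE it called 10, with 9 to 10. With 3 hearts per group, differences smaller than about 2 SE could not be told from 0, and where a library has 0 reads of a gene, up to 3 would go unseen by counting error alone.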

Other observations

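The atrial natriuretic peptide gene Nppa, a substrate of neprilysin, was read in every group after its values had been seen. It had 94.6 to 282 CPM in PRO hearts, against 39.6 to 75.1 CPM in saline hearts of set B, and 209 to 546 CPM in PTU+PRO hearts, against 10.3 to 24.1 CPM in PTU hearts. Neither pair overlapped. In set A it had 103 to 229 CPM in PHE+PRO hearts, against 34.3 to 291 CPM in PHE hearts, and 174 to 388 CPM in PTU+PHE+PRO hearts, against 2.31 to 182 CPM in PTU+PHE hearts, with overlap in both pairs. The mitochondrial carrier Ucp3, nearest in pattern to Rsrp1, had 10.5 to 20.1 CPM in PTU+PRO hearts, against 1.78 to 3.92 CPM in PTU hearts, and 9.94 to 15.6 CPM in PTU+PHE+PRO hearts, against 25.9 to 36.9 CPM in PTU+PHE hearts. It lay above with propranolol on PTU and below on PTU+PHE, as did Rsrp1.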
